A study of Mus musculus with 26 samples.

Results

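RNA polymerase II (Pol II) was mapped by ChIP-seq in GFP-expressing RAW264.7 cells, a mouse macrophage line, after 1 h of lipopolysaccharide (LPS) and in untreated cells. The 4 libraries, 2 after LPS and 2 untreated, are the Pol II libraries of the GFP line among 26 libraries in the series. Peaks of these 4 libraries that shared at least 1 bp were merged into 42778 regions, and the 21143 regions with a peak in all 4 were tested. Treated cells were given 500 ng/ml LPS for 1 h and untreated cells none. Both groups carried the same stable doxycycline-inducible GFP construct, the control of the HA-tagged Nur77 line in the same series. Both had also been given 50 ng/ml doxycycline for 18 h, and both were fixed with 1% formaldehyde for 10 minutes. The labels name 1 stable line per construct and do not say that the replicates came from separate cultures, so p-values measure the spread between these libraries, which may be technical.

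Pol II transcribes all protein-coding genes, and in ChIP its signal at a gene reflects how much polymerase lies on the promoter and along the gene body. LPS, a component of the outer membrane of Gram-negative bacteria, binds the TLR4 receptor complex of macrophages and activates NF-kB, MAP kinases with AP-1, and interferon regulatory factors. Many early response genes hold a paused polymerase near the start site that is released into the gene body when the pathway is active.

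Mapped tags were 17.7 and 23.1 M (M for mega) after LPS and 11.9 and 19.96 M in untreated cells, of which 64.9 and 61.5%, and 53.5 and 57.7%, lay in called peaks. Of 8 macrophage markers, all 8 had a tested Pol II region, among them Spi1, Csf1r, Adgre1 and Cd68. Of 26 markers of other cell types, 17 had no peak in any library, including Cd3e, Epcam, Col1a1 and Alb. A further 4 had a peak in some libraries only and 5 had a tested region (Cd4, Cd79a, Cdh5, Kdr and Gfap). Of these Gfap, an astrocyte marker, was higher after LPS, with 70.2 and 64.7 tags after LPS, against 22.2 and 19.8 tags in untreated cells, a call that was lost without any 1 of the 4 libraries. None of the 18 of these 26 with a known start site had it inside a peak. Their summed deposited tags were 1065 and 836 after LPS, against 1163 and 993 in untreated cells, while those of the macrophage markers were 22093 and 19192, against 23332 and 21580. Fewer cells of a type and less polymerase per cell cannot be told apart in these data.

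Unless they are called deposited, values are sums of the normalized tags (per 10 M mapped tags) of all peaks in a merged region, divided by a scaling factor per library. A region was called at an adjusted p under 0.05. Pol II was higher after LPS at 1307 of 21143 tested regions (6.18%) and lower at 899 (4.25%). Among 15068 tested regions over a named protein-coding gene, 883 (5.86%) were higher and 556 (3.69%) lower. The LPS and untreated libraries did not overlap at 12206 regions (57.7%), so separation of the groups alone is common. Without scaling factors the split was 1005 higher and 1070 lower, with a median log2 fold change over all tested regions of -0.16 in place of -0.01. Leaving out untreated replicate 2 left 876 higher and 218 lower regions. Regions with no annotated gene within 1 kb made up 20.4% of the higher and 23.0% of the lower calls, and 18.4% of all tested regions. A region called in the untreated or LPS input of the line overlapped 254 of the higher, 99 of the lower and 2422 of all tested regions, and among those named below these include Cd83 and the regions of Tnf, Nfkbia, Tlr2, Ccl3, Cxcl2, Csf1, Il1a, Ptgs2, Lyz2, Fcgr3, Tnfrsf1b, Atf3, Fos, Batf, Jdp2, Rela, Msr1, Atp6v0d2, Dld, Clec4e, Lipa, Mcl1, Malat1 and Lilr4b.

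With regions merged over the 4 libraries, the largest gain lay over Cxcl10, which encodes a chemokine for activated T cells. Its region lies at chr5:92341526-92350982 (mm10, coordinates as deposited). The region also spans part of Art3. It held 2506 and 1729 tags after LPS, against 15.9 and 15.4 tags in untreated cells, a log2 fold change of 6.97 ± 0.25 (SE) and a limma adjusted p of 0.00363. Acod1, which encodes the enzyme that makes itaconate, lay in the next region (chr14:103045817-103062361), which held 5635 and 10483 tags after LPS, against 111 and 106 tags in untreated cells. Its log2 fold change was 6.14 ± 0.31 (limma adjusted p = 0.0042), with 2.68 per kb and 3.45 in length. Both regions were chosen among called regions whose groups do not overlap, so the gap between their groups is part of the choice. At Acod1 the untreated peak lay outside the gene span. Where regions were merged over all 8 Pol II libraries, Cxcl10 had a smaller log2 fold change in GFP cells than Acod1 (6.13 ± 0.32). The rank of Cxcl10 as the largest gain thus depends on how regions were merged.

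Both genes have a promoter in the RefSeq table (GRCm38.p6), and the 250 bases before each start site are printed because these are the largest gains. Capitals mark matches to 6 motifs. The AP-1 site was searched as TGANTCA, the CRE was searched as TGACGTCA, the core promoter element known as the TATA box as TATAAA, and the NF-kB, ISRE and CArG box consensus sites are given by name. TATA box was searched on the strand of the gene and the others on both strands.
Cxcl10 (chr5:92348890-92349139, minus strand): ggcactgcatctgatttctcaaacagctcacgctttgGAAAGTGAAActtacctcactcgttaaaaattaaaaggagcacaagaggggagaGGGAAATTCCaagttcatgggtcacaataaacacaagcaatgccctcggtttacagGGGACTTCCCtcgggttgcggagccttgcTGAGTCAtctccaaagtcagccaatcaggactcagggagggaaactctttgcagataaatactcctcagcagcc
Acod1 (chr14:103046762-103047011, plus strand): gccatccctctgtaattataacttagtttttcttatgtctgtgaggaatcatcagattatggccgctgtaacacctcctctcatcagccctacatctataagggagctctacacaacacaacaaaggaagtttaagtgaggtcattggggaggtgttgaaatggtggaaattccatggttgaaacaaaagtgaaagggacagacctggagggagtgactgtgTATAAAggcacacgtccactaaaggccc
The Cxcl10 window holds 2 NF-kB matches, 1 AP-1 match and 1 ISRE match. The Acod1 window holds a TATA box match that begins 28 bases before the start site and no match to the other 5 motifs. Among all 32851 promoter windows in the table, 3.9% held an NF-kB match, 6.75% AP-1, 2.98% ISRE and 7.59% a TATA box. Where the start site lay in a region that was higher after LPS, 81 of 728 windows (11.1%) held an NF-kB match, against 17 of 446 (3.81%) in regions that were lower and 472 of 11072 (4.26%) in regions not called. AP-1 matches were found in 6.87, 4.71 and 4.32% of these windows. For ISRE the shares were 2.61, 1.12 and 2.57%, and for the TATA box 5.49, 3.81 and 3.26%. For CRE they were 1.92, 0.224 and 2.98%, and for the CArG box 2.06, 0.897 and 1.0%. Windows of 1 gene can overlap, and a match is not a binding site.

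The region that holds the start site of Dnaic2, a dynein subunit gene, and 0.554 kb of Ttyh2, a chloride channel family gene, held 1788 and 1149 tags after LPS, against 17.1 and 23.2 tags in untreated cells. The region that holds 1.05 of the 10.9 kb of Mmp14, which encodes a membrane-bound matrix metalloproteinase, and not its start site, had 662 and 1134 tags after LPS, against 10.8 and 17.5 tags in untreated cells. Cd83, which encodes a surface protein of activated antigen-presenting cells, had 9536 and 5121 tags after LPS, against 162 and 199 tags in untreated cells, a log2 fold change of 5.28 ± 0.32, and its region overlapped one called in input. All 3 were chosen in the same way as Cxcl10 and Acod1, so the gap between their groups is part of the choice. Their log2 changes were 3.26, 2.23 and 3.18 per kb, and 2.84, 3.69 and 2.06 in length.

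The next region by size holds Mir155hg, the host transcript of miR-155, which is known as an LPS-induced microRNA in macrophages (chr16:84698527-84723662). It held 5493 and 3251 tags after LPS, against 114 and 126 tags in untreated cells, with a log2 fold change of 5.13 ± 0.28, and the called length was 25.1 and 22.3 kb after LPS, against 1.44 and 1.14 kb in untreated cells. Its log2 change was 0.93 per kb, not called (limma adjusted p = 0.0716), and 4.21 in length. The region also holds 5.38 of the 16.96 kb of Mrpl39, a mitochondrial ribosomal protein gene, without its start site. The hairpin lies inside the region, and the mature strand is printed with its seed, bases 2 to 8, in capitals (RefSeq, GRCm38.p6, chr16:84714143-84714165, plus strand).
mmu-miR-155-5p: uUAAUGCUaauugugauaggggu
ChIP tags cannot assign the polymerase to 1 strand here, so Mrpl39 and Mir155hg cannot be told apart.

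The remaining 4 of the 10 largest gains were Pcdh7 (a protocadherin), Anxa5 (a phosphatidylserine-binding annexin), Mitf (a transcription factor of the MiT family) and Tbck. Their untreated libraries held between 9.2 and 47.8 tags and their LPS libraries between 255 and 719 tags. At Anxa5 and Mitf 1 untreated library held 9.2 and 10.03 tags, and the SE of their log2 fold changes was 0.70 and 0.61, the widest of the 10. That library, untreated replicate 1, held 10.8 tags at Mmp14 and 9.62 at Pcdh7, and each of these peaks spanned 0.5 kb. Its smallest peak had 6.73 deposited tags, so these gains were measured against untreated values near the floor. In the merge over all 8 Pol II libraries Anxa5 had a log2 fold change of 2.96 ± 0.19 in place of 4.85, while Mitf kept 4.84. The regions at Pcdh7, Anxa5, Mitf and Tbck hold 1.63 to 27.1% of the span of their gene and no start site of it.

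**Figure D1:**
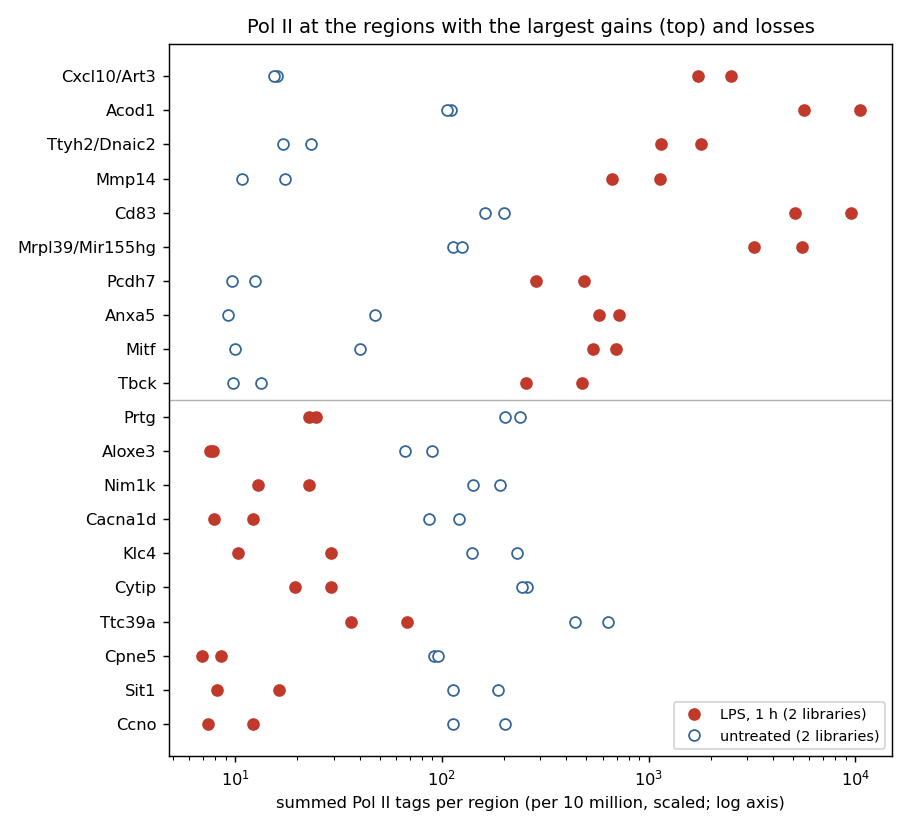
Summed Pol II tags (scaled, per 10 M mapped tags, log axis) in each of the 2 LPS (filled) and 2 untreated (open) libraries at the 10 regions with the largest gains and the 10 with the largest losses. Both LPS libraries of Cxcl10/Art3 lie above 1700 tags and both untreated ones at about 16 tags. The regions were chosen among those whose groups do not overlap.

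The 10 largest losses were smaller than the 10 largest gains on the log2 scale. The region with the largest loss holds 40.9% of Ccno, which encodes an atypical cyclin, without its start site, with 12.2 and 7.36 tags after LPS, against 202 and 114 tags in untreated cells. Where regions were merged over all 8 Pol II libraries the region was longer, and its log2 fold change in GFP cells was -1.45 ± 0.35 in place of -3.86. That of Klc4 was -1.01 ± 0.18 in place of -3.30, so the order of the losses, like that of the gains, depends on how regions were merged. Cytip, which encodes a cytohesin-interacting protein of leukocytes, held 29.2 and 19.6 tags after LPS, against 258 and 244 tags in untreated cells, and Ttc39a held 36.2 and 67.8 tags after LPS, against 440.1 and 639 tags in untreated cells. The other 7 were Sit1, Cpne5, Klc4, Cacna1d, Nim1k, Aloxe3 and Prtg, with log2 fold changes from -3.54 to -3.16. Of the 10, those of Sit1, Cytip and Prtg hold a known start site of the gene. At Ccno, Cpne5 and Aloxe3 the lower LPS library held 7.36, 6.91 and 7.59 tags, where the smallest peaks of the LPS libraries had 5.93 and 5.41 deposited tags.

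Among the 5 regions with the highest mean tags, only the Tnf locus was called. This region over Tnf, Lta, Ltb and their neighbours held 58899 and 55925 tags after LPS, against 5708 and 6461 tags in untreated cells, a log2 fold change of 3.24 ± 0.58 (SE) and a limma adjusted p of 0.0271. Tags per kb at the locus were 1161 and 1094 after LPS, against 144 and 157 in untreated cells. Neither the Neat1, Malat1 and Frmd8 region, with 44765 and 33320 tags after LPS, against 77669 and 55811 tags in untreated cells, nor a histone gene cluster on chromosome 3 (H2bc21 and neighbours) was called. The region over Mcl1, an anti-apoptotic gene, and Ensa held 47652 and 39644 tags after LPS, against 12890 and 13594 tags in untreated cells, and missed the threshold on summed tags (limma adjusted p = 0.168). On tags per kb it passed, with an adjusted p of 0.00265. The same was seen at Lilr4b and Lilrb4a, 2 inhibitory receptor genes, with 45734 and 31123 tags after LPS, against 6499.6 and 8228 tags in untreated cells, adjusted p = 0.054 on tags and 0.0014 per kb. The limma variance trend gives these highest regions wide standard errors (0.58 at the Tnf locus), so a missed threshold there shows no lack of difference.

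Summed tags can move with the length called, so length and density were tested apart. Among the 1307 higher regions, tags per kb had a positive change at 1225, and 486 were also called higher per kb. Covered length was called longer at 201. Their median log2 fold change of 1.91 split into 0.87 for tags per kb and 1.01 for length. The 899 lower regions had medians of -1.74 for tags, -0.89 per kb and -0.83 for length. Of these, 869 had a negative change per kb, 331 were called lower per kb and 31 shorter. Over all 21143 regions, 559 (2.64%) were higher and 425 (2.01%) lower per kb, and 222 (1.05%) longer and 34 (0.161%) shorter.

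**Figure D2:**
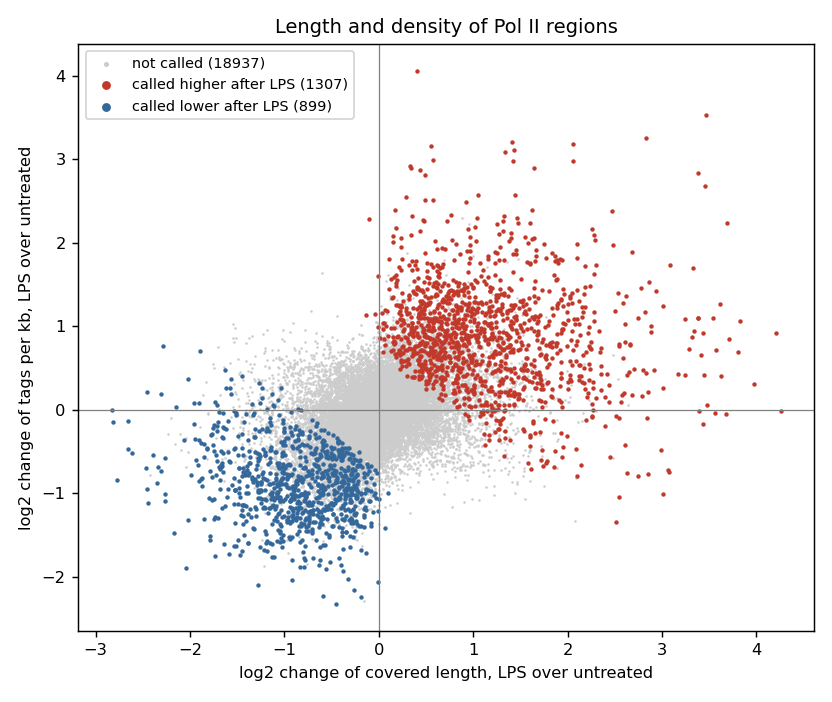
Each point is 1 of 21143 tested regions, with the log2 change of covered length on the horizontal axis and of tags per kb on the vertical axis, LPS over untreated. Most of the 1307 regions called higher (red) lie in the upper right and most of the 899 called lower (blue) in the lower left, and some called regions changed mainly in length.

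Where the signal lay on genes was read from the percent of the gene span covered by called regions, which has no test. Tags were summed over called peaks, so the split by call fixes part of the difference in coverage. The 587 genes with a known start site whose region was higher had a median coverage of 33.4 and 29.8% after LPS, against 11.0 and 12.9% in untreated cells. The start site of 510 and 509 of them lay in a peak after LPS, and of 491 and 494 in untreated cells. The 367 genes whose region was lower had medians of 9.98 and 9.49% after LPS and 16.9 and 18.7% in untreated cells. For the 8790 genes whose region was not called the medians were 9.42 and 8.43%, against 8.30 and 8.91%. Called signal also ran past the gene end. Over the 155 genes of higher regions with 20 kb free of other genes downstream, it reached on average 1.49 and 1.26 kb past the end after LPS and 0.353 and 0.470 kb in untreated cells. At 22 and 15 of them it ran at least 5 kb past, against 2 and 4. Over 1845 such genes of regions not called, it reached 0.276 and 0.246 kb after LPS, against 0.204 and 0.200 kb. At 27 and 20 of these it ran at least 5 kb past, against 14 and 9.

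Named genes show what this looks like. Irf1, which encodes an interferon regulatory factor, was covered over 100 and 100% of its span after LPS, against 11.7 and 13% in untreated cells. Traf1, which encodes an adaptor of TNF receptors, was covered over 100 and 93.6% of its span after LPS, against 7.62 and 8.88% in untreated cells, and its start site lay in a peak in both LPS libraries and in neither untreated one. Tnfaip3, which encodes the NF-kB inhibitor A20, was covered over 100 and 100% of its span after LPS, against 19.6 and 15.6% in untreated cells. Csf1, which encodes the macrophage growth factor, was covered over 100 and 100% of its span after LPS, against 7.64 and 10.2% in untreated cells. In these 4 genes most of the span entered called regions after LPS. They were taken from genes called higher, which fixes part of the difference in coverage. Short genes such as Nfkbia, Tnf and Clec4e were covered whole in every library, so their coverage could not increase.

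**Figure D3:**
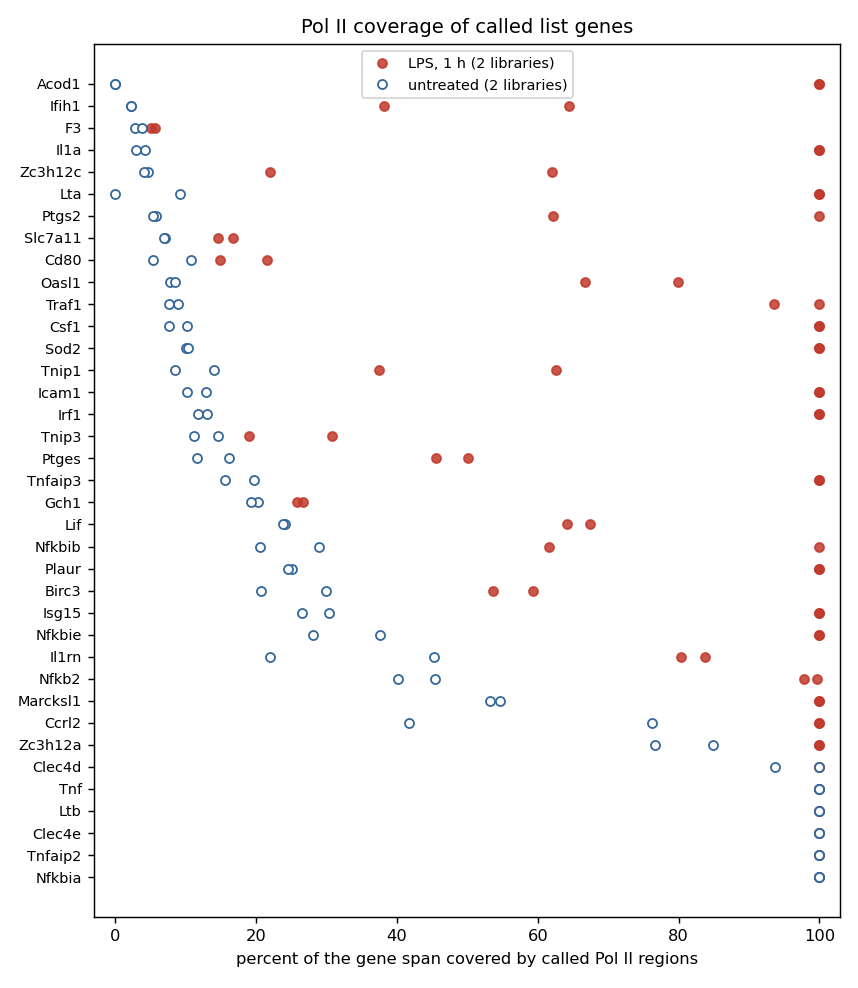
Percent of the gene span covered by called Pol II regions, per library, for the 37 genes with a known start site that were called higher in the NF-kB, cytokine, interferon and activation lists. In 28 of them the untreated mean is below 50%, and in 22 the LPS mean is above 90%. Taking only genes called higher fixes part of this difference.

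The response was then read by gene group. Each list member is represented by its tested region with the highest mean tags, a region shared by neighbours counts once, and members named beyond the 3 with the smallest p of a list were chosen after their values were seen. A region counts for a member within 1 kb of its span, so values belong to the region. Of 111 called members 1 has its region outside its span, and 9 of the 86 with a start site in the RefSeq promoter table have none inside the region, Lif, Ccnd3, Lyz1 and Gfap among them. Among all tested regions the median log2 fold change was -0.01, and 6.18% were higher and 4.25% lower. On tags per kb 2.64% were higher and 2.01% lower.

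Receptors and adaptors of LPS sensing changed in part. Of 28 tested regions 7 were higher and 1 lower, with a median log2 fold change of 0.28. On tags per kb 3 were higher and 0 lower (median 0.08), and without a mean-variance trend 4 and 0. Tlr2, which encodes the receptor for bacterial lipoproteins, held 6410.4 and 6210 tags after LPS, against 489 and 864 tags in untreated cells (log2 fold change 3.28 ± 0.31, adjusted p = 0.00702). Ikbke and Tbk1, which encode kinases of the interferon branch, had log2 fold changes of 2.66 ± 0.21 and 2.46 ± 0.20. Per kb these were 1.22, called higher, and 0.63, not called. Tlr4, the LPS receptor gene, held 1017 and 838 tags after LPS, against 1402 and 741 tags in untreated cells, and its groups overlapped. Tlr6, the partner of Tlr2, fell to 209.7 and 320.0 tags after LPS, against 559.7 and 544 tags in untreated cells. Without untreated replicate 2, the counts were 4 higher and 0 lower, and Tlr6 was also lost without untreated replicate 1 or LPS replicate 1.

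Of 24 tested regions of NF-kB subunit, inhibitor and feedback genes, 14 were higher and none lower, with a median of 1.72. Nfkbia, which encodes the inhibitor IkB-alpha, held 20783 and 13526 tags after LPS, against 1277 and 1536 tags in untreated cells (log2 fold change 3.58 ± 0.34, adjusted p = 0.00702). Traf1 held 8995 and 6860.1 tags after LPS, against 503 and 517 tags in untreated cells and had the smallest p of the list. Nfkb2, which encodes the p100 precursor, had 3194 and 2643 tags after LPS, against 659 and 573 tags in untreated cells, and Tnip1, a partner of A20, had 1211 and 1273 tags after LPS, against 333 and 367 tags in untreated cells. In contrast Rela, the main activating subunit, held 942 and 955 tags after LPS, against 647 and 640.0 tags in untreated cells, did not overlap between groups and was not called (adjusted p = 0.088). A count of 8 of the 24 were also higher per kb, and the median per kb was 0.52.

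Cytokine genes had 9 higher regions of 15 tested, none lower, and a median of 1.84. Per kb 5 were higher, with a median of 0.42. Il1rn, which encodes the IL-1 receptor antagonist, held 3053 and 2316 tags after LPS, against 84.3 and 140.4 tags in untreated cells, and Lif, a cytokine of the IL-6 family, held 907 and 1159 tags after LPS, against 71.5 and 52.4 tags in untreated cells. Csf1 rose by 3.87 ± 0.34 on the log2 scale, of which only 0.42 was per kb. Il1a was called higher on tags (1.85 ± 0.32) while its tags per kb were lower by a log2 change of -0.76, which was not called. Il1b had a peak only in LPS replicate 2, with 57.5 deposited tags, Il6 had 892 and 9.52 deposited tags after LPS, against 20.6 and 0 in untreated cells, and Il12a and Ifnb1 had no peak in any library. Leaving out untreated replicate 2 left 6 higher, and without a mean-variance trend there were 7.

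Chemokine genes lie in clusters, so 10 tested members shared 7 regions, of which 6 were higher and none lower (median 3.33). Of the 7, 5 were also higher on tags per kb (median 2.49). The region over Cxcl2, which encodes a neutrophil attractant, and 0.127 kb of Cxcl1 held 27226 and 20167 tags after LPS, against 1149 and 951 tags in untreated cells (log2 fold change 4.48 ± 0.32, adjusted p = 0.00467). Ccl3 and Ccl4, which encode inflammatory macrophage chemokines, shared a region with 26252 and 38160 tags after LPS, against 2183 and 4567 tags in untreated cells. In both clusters the LPS libraries lay far above the untreated ones. Ccl5 had no peak in untreated cells and 9914 and 4025 deposited tags over 17.7 and 17.1 kb after LPS, the strongest region called after LPS only. Cxcl16, which encodes a membrane-bound chemokine, held 1272 and 1292 tags after LPS, against 375 and 472 tags in untreated cells. Cx3cl1 was the 1 region not called, and 6 members had no peak.

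Activation genes had 18 higher regions of 24 tested, none lower, with a median of 2.13. Tags per kb gave 10 higher and a median of 1.11. Cd40, which encodes the receptor for T cell help, held 2508 and 2139 tags after LPS, against 117 and 88.3 tags in untreated cells (log2 fold change 4.49 ± 0.21, adjusted p = 0.0042). Its log2 change was 0.69 per kb, not called (limma adjusted p = 0.165), and 3.80 in length. Tgm2, which encodes transglutaminase 2, held 471 and 422 tags after LPS, against 22.9 and 22.5 tags in untreated cells. Ptgs2, which encodes the prostaglandin synthase COX-2, held 208 and 593 tags after LPS, against 17.6 and 13.1 tags in untreated cells, and its LPS libraries differed from each other more than those of the other 2. Nos2, which encodes the inducible nitric oxide synthase and has 0.466 kb of its span in the region, had 126 and 83.4 tags after LPS, against 25.9 and 21.1 tags in untreated cells. Sod2, which encodes mitochondrial superoxide dismutase, rose on tags (2.33 ± 0.22) while its tags per kb were lower by a log2 change of -0.72, which was not called.

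**Figure D4:**
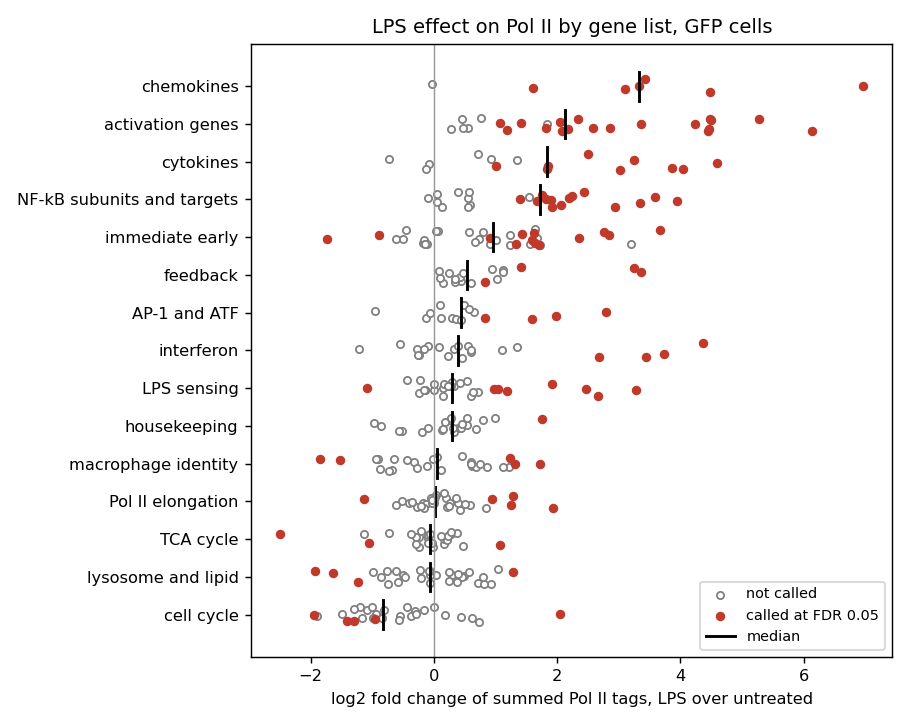
Log2 fold change of summed Pol II tags, LPS over untreated, for the tested region of each list member (points, shifted at random within a row), with called members filled and the list median as a bar. Chemokine, activation, cytokine and NF-kB regions lie mostly right of 0, cell cycle regions mostly left.

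Immediate early genes were divided. Of 36 tested regions 11 were higher and 2 lower, with a median of 0.96, and on tags per kb 12 and 1 (median 0.76). There were 5 higher without untreated replicate 2 and 17 without LPS replicate 2, and 1 lower without any 1 of the 4 libraries. Csrnp1, a nuclear protein gene of the early response, held 3564 and 2778 tags after LPS, against 242 and 250.2 tags in untreated cells (log2 fold change 3.67 ± 0.20, adjusted p = 0.0042). Gadd45b, a stress sensor gene, held 5175 and 5648 tags after LPS, against 927 and 1194 tags in untreated cells. Egr1 and Myc were not called, and their replicates differed. Egr1 held 14047 and 3953 tags after LPS, against 3176 and 1728 tags in untreated cells, and Myc 3859 and 1263 tags after LPS, against 598 and 96.2 tags in untreated cells. Zfp36l2, which encodes an mRNA-decay protein, fell to 743 and 801 tags after LPS, against 2418 and 2724 tags in untreated cells. The region that holds the start site and 1.11 of the 20.9 kb of Nr4a1, which encodes Nur77 itself, was weak. It held 54.4 and 31.2 tags after LPS, against 34.3 and 19 tags in untreated cells, and was not called (limma adjusted p = 0.437). Nr4a3 was called higher on tags (0.91 ± 0.18) with a log2 change per kb of -0.35, not called.

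AP-1 and ATF genes had 4 higher regions of 15 tested, none lower, and a median of 0.44, and on tags per kb 3 were higher and 1 lower (median 0.29). The called members were Maff, Atf3, Junb and Jdp2. Maff, a small MAF factor gene, held 1489.7 and 1267 tags after LPS, against 158 and 249 tags in untreated cells (log2 fold change 2.78 ± 0.26, adjusted p = 0.00702). Atf3, a stress-induced repressor gene, held 6652 and 7437 tags after LPS, against 1423 and 2223 tags in untreated cells. Fos held 1826 and 813 tags after LPS, against 3394 and 1662 tags in untreated cells, its groups overlapped and it was not called (adjusted p = 0.261). Without LPS replicate 1 there were 2 higher and 1 lower; with untreated replicate 1 left out 1 was higher, and with untreated replicate 2 left out 2 were. Batf was lower per kb (log2 change -0.996, adjusted p = 0.0238) and was not called on tags (0.44 ± 0.23).

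Interferon genes had 4 higher regions of 21 tested, none lower (median 0.38), and on tags per kb 2 were higher (median 0.26). The 4 higher on summed tags were Ifih1, Irf1, Isg15 and Oasl1. Ifih1, which encodes the RNA sensor MDA5, held 2407 and 1299 tags after LPS, against 79 and 91.9 tags in untreated cells. Its log2 change was 0.92 per kb, not called, and 3.44 in length. Irf1 held 3286 and 3566 tags after LPS, against 271 and 362 tags in untreated cells (log2 fold change 3.45 ± 0.21, adjusted p = 0.0042). A further 6 members, Ifit1, Rsad2, Gbp2, Gbp3, Gbp5 and Zbp1, had a region in both LPS libraries and in neither untreated one. Rsad2 had a further peak, over its start site and 2.1% of its span, in untreated replicate 2. Gbp2, which encodes a guanylate-binding protein of host defence, had 133 and 196 deposited tags there. Mx1, Mx2, Ifit3, Oasl2 and Ifi44 had no peak. Among genes of cytokine and interferon receptors and of factors that act on their signals, 4 of 18 regions were higher and none lower (median 0.53). On tags per kb 2 were higher (median 0.37). The 4 higher on summed tags were the receptor genes Tnfrsf1b and Ifngr2 and the inhibitor genes Cish and Socs1. The TNF receptor gene Tnfrsf1b held 3879.8 and 3619.6 tags after LPS, against 317 and 418 tags in untreated cells, and Cish, an inhibitor of cytokine receptors, held 376 and 358 tags after LPS, against 58.1 and 24.6 tags in untreated cells. Socs1, of the same inhibitor family, held 679.9 and 497 tags after LPS, against 276 and 170.3 tags in untreated cells. Its log2 change was 0.35 per kb, not called, and 1.07 in length. Without untreated replicate 2 there were 2 higher.

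Genes of macrophage identity stayed near the median of all regions, with 3 higher and 2 lower of 27 tested and a median of 0.06, which was -0.10 without scaling factors. On tags per kb 1 was higher and 1 lower, and without a mean-variance trend 0 and 1. Without untreated replicate 1 there were 1 higher and 4 lower, and 1 lower without untreated or LPS replicate 2. Msr1, which encodes a scavenger receptor, Runx1, a haematopoietic factor gene, and the region that Spi1 shares with Slc39a13 and Psmc3 were higher. The lysozyme region over Lyz1 and Lyz2 was lower, with 2308 and 2367 tags after LPS, against 7149 and 6319.8 tags in untreated cells (log2 fold change -1.52 ± 0.26, adjusted p = 0.0236). Fcgr3, which encodes an IgG receptor, was lower too, with 152 and 82.9 tags after LPS, against 444 and 373 tags in untreated cells, and its log2 change was -0.20 per kb, not called, and -1.65 in length.

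Lysosome and lipid genes had 1 higher and 3 lower regions of 32, with a median of -0.06. On tags per kb 1 was higher and 0 lower, without a mean-variance trend 0 and 2, and with input regions left out 1 and 1. The 3 lower regions lay over parts of Lipa, the lysosomal acid lipase gene, Abcg1, a cholesterol exporter gene, and Atp6v0d2, a proton pump subunit gene. Lipa held 105 and 137 tags after LPS, against 390.1 and 537 tags in untreated cells. Among TCA cycle genes 1 of 27 was higher and 2 lower (median -0.06), and on tags per kb 0 and 1. A region over 2.02 of the 23.8 kb of Idh2, which encodes mitochondrial isocitrate dehydrogenase, held 14.5 and 42.4 tags after LPS, against 122 and 173 tags in untreated cells, and Dld, called higher on tags (1.08 ± 0.17), had a log2 change per kb of -0.26. The other lower region (-1.05 ± 0.19) covers Coq10a and only the last 1.23 kb of Cs, the citrate synthase gene. Cs itself was covered over 18.6 and 15.8% of its span after LPS, against 15 and 14.7% in untreated cells, so no fall at Cs is shown. Without untreated replicate 2, or without a mean-variance trend, 0 TCA cycle regions were called in either direction, and 1 was lower without untreated or LPS replicate 1.

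Cell cycle genes had the lowest median, -0.83, with 23 of 28 regions below 0. Their median per kb was -0.40. Of the 28, 4 were called lower and 1 higher, where 4.25% of all tested regions were lower and 6.18% higher. On tags per kb 2 were lower and 0 higher, and without a mean-variance trend 1 and 1. E2f1, which encodes a factor of S-phase entry, held 58.9 and 109 tags after LPS, against 239 and 407 tags in untreated cells (log2 fold change -1.94 ± 0.40, adjusted p = 0.0374). Ccnd3, E2f2 and Mcm2 were the other 3 lower regions. Cdk6, which encodes a G1 kinase, was higher, with 1905 and 2201 tags after LPS, against 391 and 625 tags in untreated cells. Leaving out untreated replicate 2 left 0 lower calls and a median of -0.43. With LPS replicate 1 left out 2 were lower, with LPS replicate 2 left out 7, and with untreated replicate 1 left out 8. The genes of Pol II elongation had 4 higher and 1 lower region of 34, with a median of 0.01. On tags per kb 0 were called in either direction, and without a mean-variance trend 1 was higher and 0 lower. Ell2, an elongation factor gene, held 1274 and 1087 tags after LPS, against 278 and 339.6 tags in untreated cells. The lower region (-1.14 ± 0.19) covers Tor4a and ends before the span of Nelfb, a subunit gene of the pausing factor NELF, so no fall at Nelfb is shown. Nelfcd, another subunit gene, shares a higher region with Ctsz (1.28 ± 0.22). Without untreated replicate 2 there were 2 higher and 0 lower, and 0 lower without LPS replicate 1. Of 22 housekeeping regions 1 was higher, the one that Hsp90ab1 shares with Nfkbie, and 0 were lower. B2m (0.79 ± 0.22) and Tuba1b (-0.97 ± 0.28) had the next smallest p and were not called. The higher call was lost without untreated replicate 2, and 1 was lower without untreated replicate 1 or LPS replicate 2.

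Regions called in 1 condition only were counted with no test. Both LPS libraries and no untreated library had a peak at 2157 regions, 1255 of them over a named gene, and the reverse held at 1764, 880 over a gene. A further 11334 regions were called in 1 library only. Most regions of 1 condition were weak, with a median of 15.8 deposited tags after LPS only and 13.8 deposited tags in untreated cells only. After Ccl5 the strongest after LPS were Alpk2, Pakap, Icosl and Mapkapk2. Icosl, which encodes a T cell co-stimulator, had 330.4 and 421 deposited tags over about 10 kb. In untreated cells only, the strongest lay over Card14 and Sgsh, with 193 and 294 deposited tags, and over Gpr146, a receptor gene, with 261 and 185. These are single regions: the start sites of Icosl, Mapkapk2 and Gpr146 lay in another peak in all 4 libraries.

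H3K27ac, an acetylation mark of active promoters and enhancers, was measured in other libraries of the same line and conditions. Among 19332 H3K27ac regions that overlapped tested Pol II regions, 5904 (30.5%) were higher and 5830 (30.2%) lower after LPS. Over regions with higher Pol II, 1313 of 1431 (91.8%) were higher and 22 lower, with a median log2 fold change of 1.11. Over regions with lower Pol II, 2 of 846 were higher and 820 (96.9%) lower, with a median of -1.01. Over Pol II regions not called, 26.9% were higher and 29.2% lower. At Cxcl10 the mark held 127 ± 14.5 tags after LPS and 8.51 ± 2.31 tags in untreated cells (SD, n = 2 each). Without scaling factors 3077 regions were higher and 10547 lower, with a median over all of them of -0.35 in place of -0.01. Per the file headers, the H3K27ac libraries of replicate 2 were called with the local filter switched off (-L 0) and those of replicate 1 without that option.

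**Figure D5:**
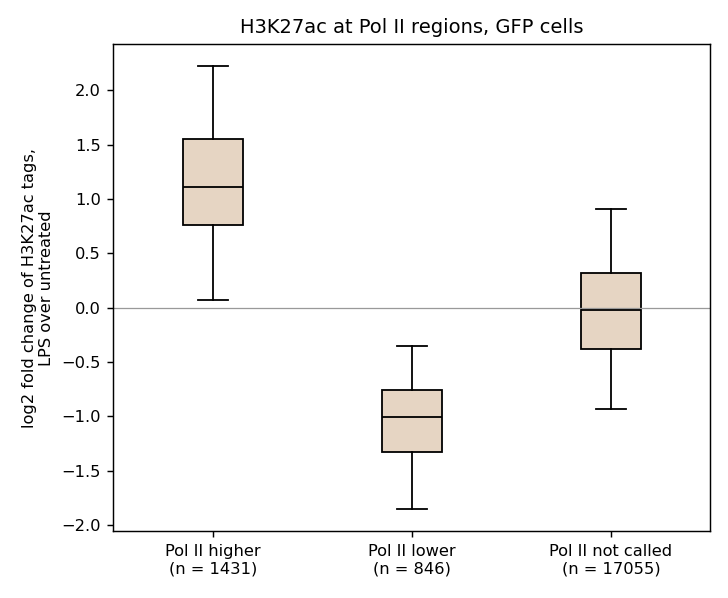
Log2 fold change of H3K27ac tags, LPS over untreated, at regions overlapping Pol II regions that were higher, lower or not called. Boxes span the quartiles with the median as a line, and whiskers the 5th to 95th percentiles. The median is 1.11 at higher, -1.01 at lower and -0.03 at uncalled Pol II regions.

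Whether the LPS effect differs between the GFP and the Nur77 line was tested as an interaction over 8 Pol II libraries, at 17081 regions with a peak in all 8. No region passed the threshold in limma, with a smallest adjusted p of 0.99997. An unadjusted p under 0.05 was found at 466 of the 17081, a share below 0.05. In that fit GFP cells had 1670 higher and 1501 lower regions and Nur77 cells 2460 and 2675. The calls were shared at 1471 higher regions, 88.1% of those of GFP cells and 59.8% of those of Nur77 cells. They were shared at 1370 lower regions, 91.3% and 51.2%, and none was called in opposite directions. At the regions higher in GFP cells the median was 1.49 in GFP cells and 1.54 in Nur77 cells. One untreated Nur77 library had a stated fragment length of 1550 bp, against 174 to 318 bp in the GFP libraries.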

How the data were processed

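ChIP-seq of Pol II in GFP-expressing RAW264.7 cells was compared between LPS and untreated libraries, 2 each. The build was mm10, and the tools were HISAT2 2.1.0 for alignment and HOMER (version not given in the sources used here) for peaks, as the submitters' processing notes list them. Each library was called on its own, with HOMER's histone settings and a Poisson threshold of 0.001, per the file headers. The signal is the deposited normalized tag count, per 10 M mapped tags. The deposited score and region size were not used, and covered length was taken from the start and end of each peak. Before normalization the values step by 0.5 tags and are not counts, so no count model was run.

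Peaks sharing at least 1 bp were merged across the 4 libraries, and tags and covered length were summed per library. Regions with a peak in all 4 were given trimmed-mean (TMM) scaling factors (the outer 30% of log ratios and 5% of mean levels were trimmed; factors 0.928 and 0.970 for LPS, 1.01 and 1.10 for untreated) and tested on log2(tags + 1) with limma 3.58.1 in R 4.3.3, with a variance trend, two-sided, with Benjamini-Hochberg adjustment. Fold changes on this scale understate changes of weak regions. Replicates correlated at a Pearson r of 0.947 (LPS) and 0.934 (untreated) across regions. Normalization to the mapped tags hides any change of the total. Genes are RefSeq GRCm38.p6 spans plus 1 kb. Tags per kb, covered length, H3K27ac and the interaction used the same fit. The limma steps were tested on simulated data with a set change in 200 regions. Changes of 2-fold were called at 40.5% of these regions, of 4-fold at 97% and of 8-fold at 100%. Regions without a set change were called 0, 4 and 7 times. Many changes near 2-fold would thus be missed.

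Named regions over genes were the 10 largest gains and losses with groups that do not overlap, the 3 members of each list with the smallest p, the 5 with the highest mean and the 5 strongest of 1 condition. The members and lists were chosen with earlier results of these data known. Some list members are counted in their lists and not reported by name here. Depth limits weak regions, and intervals for counting error were not computed because values are not counts.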

Additional observations from a re-analysis of the deposited data

How the results depend on the processing

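For Pol II after LPS the counts of 1307 higher and 899 lower regions were 4069 and 4027 with the replicate block. The labels do not say that same-numbered libraries were paired; with 2 pairs their deviations correlated at 0.62, a hint from the data only. A peak in both libraries of at least 1 condition, with missing peaks at 0, gave 3356 and 2609. Tags per kb gave 559 and 425. The fit over all 8 Pol II libraries gave 1501 lower. Without a mean-variance trend, an alternative chosen after seeing the data, there were 816 higher and 623 lower. Leaving out 1 library gave 876 to 1410 higher and 218 to 779 lower, the lowest of each without untreated replicate 2. The other alternatives (pseudocounts 0.5 and 10, a mean of at least 50 tags, peaks within 1 kb joined, input regions left out, no scaling factors) kept both counts within 1.5 times. H3K27ac gave 3077 higher and 10547 lower without scaling factors and 2510 lower on tags per kb, against 5904 and 5830. The interaction gave 0 regions under every alternative run, the replicate block included, and the numbers of regions called in 1 condition only stayed within 1.5 times. Of 376 regions named or held by the lists, tags per kb turned the direction at 5 that were called on one of the 2 scales: Dld (-0.26), Nr4a3 (-0.35), Batf (-0.996), Il1a (-0.76) and Sod2 (-0.72); no other alternative turned a called direction among them. The cause of these shifts was not tested, except that tags per kb divides by the called length. With 2 libraries a group, a region that missed the threshold is not shown to be without change.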
